A study of Mus musculus with 6 samples.

Results

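Transcripts of 10 genes of the NF-kB pathway were followed in mouse hepatic stellate cells, liver pericytes that store vitamin A. The genes were chosen by symbol: the 5 subunits Rela, Rel, Relb, Nfkb1 and Nfkb2, the inhibitors Nfkbia and Tnfaip3, the nuclear IkB proteins Nfkbiz and Bcl3, and the early response gene Ier3. All 10 were found among the 24346 symbols listed, and all 10 were among the 11557 genes tested, whose average level reached 1 FPKM (fragments per kilobase, relative to all those mapped). The cells came from wild type C57BL/6 mice aged 35 weeks, from the tumour region of livers of mice fed a high fat diet, from the non-tumour region of such livers, or from livers of mice fed a normal diet. Each of these 3 sources was perfused at 37 or at 6 degrees, and cells negative for CD31 (an endothelial marker) and CD45.2 (a leukocyte marker) and positive for CD49a were sorted. The study asked how incubation at high temperature during isolation alters the transcriptome.

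NF-kB is a family of dimeric transcription factors that inhibitors of the IkB family hold in the cytoplasm. Signals from Toll-like, interleukin or tumour necrosis factor receptors activate IkB kinase, which marks the inhibitors for degradation and releases the dimers to the nucleus. Among the genes then induced are inhibitors of the pathway itself, chiefly Nfkbia and Tnfaip3, so that the response ends. In hepatic stellate cells the pathway is known for chemokine production and for survival after injury.

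There was 1 library in each of the 6 groups, and no label tells if separate or pooled animals were used. The p-values thus set each effect only against how far these 6 libraries depart from the fitted model, a spread moderated over all genes. In the main model the effects of source and temperature are additive, and that spread may be technical. Depth, estimated from the smallest steps between low FPKM values, was 1.57e+07 to 2.21e+07 fragments per library. At that depth Rel, the lowest member, corresponded to an estimated 37.4 to 65.8 fragments per kilobase of transcript. All 10 stellate cell markers checked (among them Lrat and Reln) reached 1 FPKM in every library. Markers of other cells were also present and moved with the groups. The summed FPKM of 10 endothelial markers was 61.9 to 482 at 37 degrees and 1288 to 3377 at 6 degrees (Pecam1, which encodes the sorted-out CD31, 0.900 to 10.7 and 31.4 to 90.6 FPKM). For 10 macrophage markers the sum was 31.0 to 706 at 37 degrees and 424 to 1777 at 6 degrees. Ptprc, which encodes CD45, had 0.375 to 5.44 FPKM at 37 degrees and 1.75 to 16.5 FPKM at 6 degrees. The macrophage sum was 706 to 1777 in the 2 tumour region libraries, 31.0 to 488 in the non-tumour libraries and 39.2 to 424 in the normal diet libraries. All 10 markers of both lists reached 1 FPKM in the other libraries, but at 37 degrees 10 endothelial and 6 macrophage markers did in non-tumour region cells, and 6 and 7 in normal diet cells. Over the 6 libraries the sums were 21.2 to 206 FPKM for hepatocyte, 1.09 to 60.9 FPKM for neutrophil, 0.565 to 8.51 FPKM for lymphocyte and 0.213 to 1.80 FPKM for cholangiocyte markers, with Krt19 at 0 in 5 libraries. These are bulk values, so fewer cells of a type and less RNA per cell cannot be told apart.

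None of the subunits differed by 2-fold between temperatures in any source. Rela, the main transactivating subunit, lies on chromosome 19 (5637483 to 5648130, plus strand, GRCm38) and was the highest of the 5 on the FPKM scale in every library. Its level was 97.4 FPKM at 37 degrees and 90.1 FPKM at 6 degrees in tumour region cells, 91.0 and 95.3 FPKM in non-tumour region cells, and 65.4 and 66.9 FPKM in normal diet cells. Within each source the libraries of the 2 temperatures lay close together, while both normal diet libraries lay below the 4 high fat diet libraries. Relb, the partner of Nfkb2 in the non-canonical branch, had 28.9 FPKM at 37 degrees and 32.3 FPKM at 6 degrees in tumour region cells, 36.8 and 36.2 FPKM in non-tumour region cells, and 21.1 and 23.0 FPKM in normal diet cells. Here the non-tumour libraries were the highest, and again the normal diet libraries stood below the rest.

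Nfkb1 and Nfkb2 encode the precursors that are processed into the subunits lacking a transactivation domain. Nfkb1 had 15.4 FPKM at 37 degrees and 15.9 FPKM at 6 degrees in tumour region cells, 12.7 and 15.3 FPKM in non-tumour region cells, and 10.3 and 9.70 FPKM in normal diet cells. Nfkb2 had 16.2 and 16.1 FPKM, 13.2 and 17.5 FPKM, and 11.2 and 12.8 FPKM in the same order of libraries. For both genes every high fat diet library lay above both normal diet libraries. Rel, a subunit best known from lymphocytes, was the lowest member throughout, with 3.52 FPKM at 37 degrees and 3.55 FPKM at 6 degrees in tumour region cells, 2.67 and 3.23 FPKM in non-tumour region cells, and 2.82 and 1.69 FPKM in normal diet cells. For Rel the normal diet library of 37 degrees lay above the non-tumour library of 37 degrees, so the sources overlapped. Exons of Nfkb2 overlap Psd and those of Bcl3 overlap Gm16175 on the other strand, and whether counting used strand is not given in the sources used here, so those 2 values could hold reads of their neighbours.

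**Figure D1:**
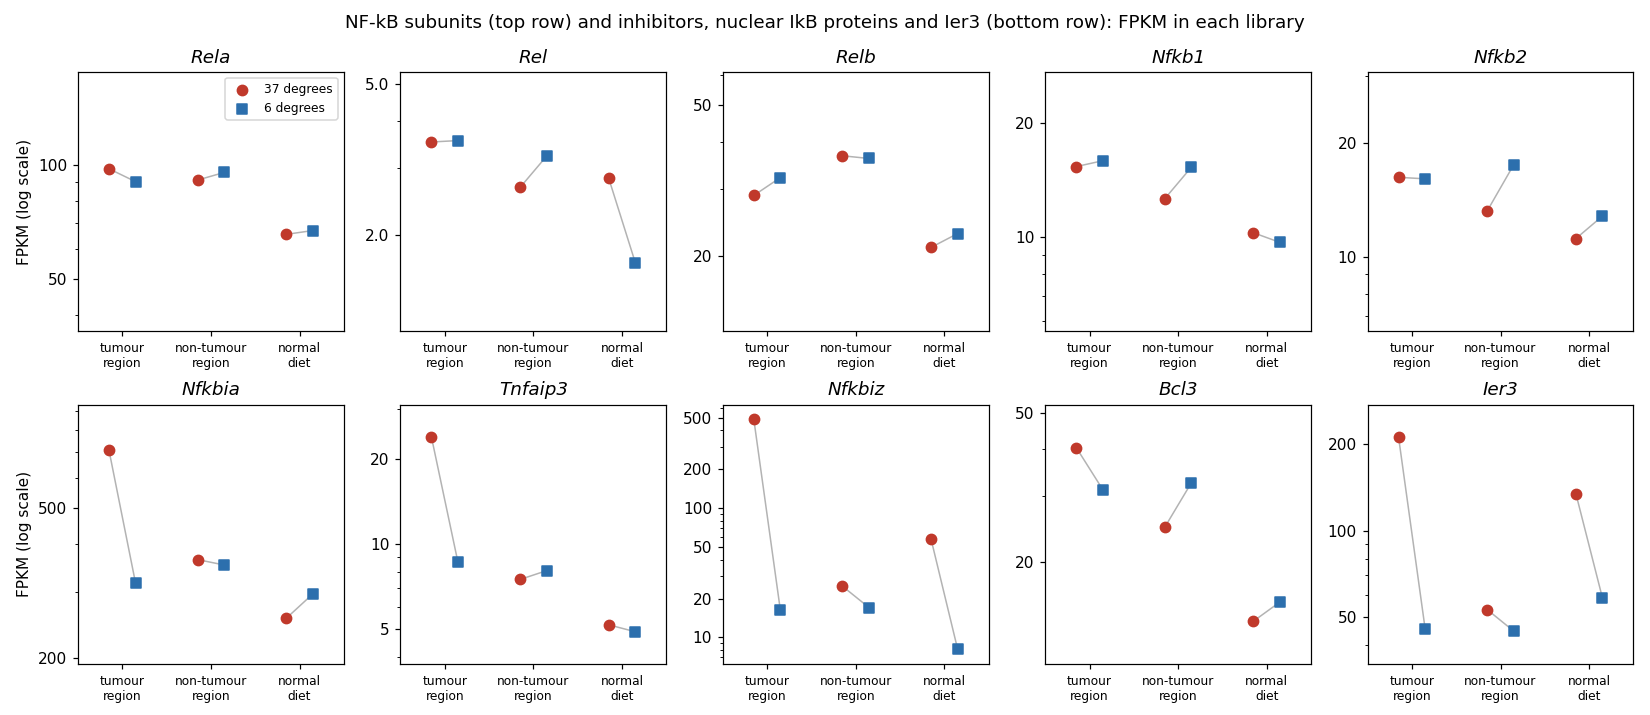
FPKM of the 10 genes in each of the 6 libraries, on a log axis, 1 panel per gene and 1 point per library, with no error bars because each group held 1 library. The 2 temperatures lie close together for Rela, Relb, Nfkb1 and Nfkb2 and apart for Rel in normal diet cells, whereas the tumour region library of 37 degrees is the highest for Nfkbiz (487 FPKM), Nfkbia, Tnfaip3, Bcl3 and Ier3.

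The inhibitors and the early response gene behaved otherwise, with a high value in the tumour region library of 37 degrees. Nfkbiz, which encodes a nuclear IkB protein that acts as a cofactor at secondary response genes such as Il6, lies on chromosome 16 (55811375 to 55838899, minus strand). It had 487 FPKM at 37 degrees and 16.2 FPKM at 6 degrees in tumour region cells, 24.9 and 17.0 FPKM in non-tumour region cells, and 57.5 and 8.09 FPKM in normal diet cells. Every library of 37 degrees lay above every library of 6 degrees. The ratio of 37 to 6 degrees was 30.2 in the tumour pair, 1.46 in the non-tumour pair and 7.11 in the normal diet pair. By level, Nfkbiz ranked 188 of 11557 genes at 37 degrees and 4533 at 6 degrees in tumour region cells.

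Ier3, an early response gene known to modulate apoptosis, lies on chromosome 17 (35821684 to 35822923, plus strand). It had 210.5 FPKM at 37 degrees and 45.5 FPKM at 6 degrees in tumour region cells, 53.2 and 44.8 FPKM in non-tumour region cells, and 134 and 58.4 FPKM in normal diet cells. The value was higher at 37 degrees within each source, but the non-tumour library of 37 degrees lay below the normal diet library of 6 degrees. Its ratio of 37 to 6 degrees was 4.63 in the tumour pair, 1.19 in the non-tumour pair and 2.30 in the normal diet pair.

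Nfkbia encodes IkB-alpha, the inhibitor that is resynthesised after NF-kB activation, on chromosome 12 (55489410 to 55492647, minus strand). It had 708 FPKM at 37 degrees and 315 FPKM at 6 degrees in tumour region cells, 364 and 353 FPKM in non-tumour region cells, and 255 and 296 FPKM in normal diet cells. The tumour region library of 37 degrees stood apart, and the other 5 lay between 255 and 364 FPKM. Tnfaip3 encodes a ubiquitin-editing enzyme that shuts off signalling upstream of IkB kinase, on chromosome 10 (19000910 to 19015657, minus strand). It had 23.9 FPKM at 37 degrees and 8.61 FPKM at 6 degrees in tumour region cells, 7.50 and 8.06 FPKM in non-tumour region cells, and 5.19 and 4.91 FPKM in normal diet cells. As with Nfkbia, 1 library lay far above the others, and the other 5 ran from 4.91 to 8.61 FPKM.

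Bcl3, a nuclear IkB protein that binds homodimers of the Nfkb1 or Nfkb2 product, had 40.4 FPKM at 37 degrees and 31.2 FPKM at 6 degrees in tumour region cells, 24.8 and 32.6 FPKM in non-tumour region cells, and 13.96 and 15.7 FPKM in normal diet cells. Its level was higher at 37 degrees in the tumour pair and lower in the other 2 pairs. The 2 normal diet libraries lay below all 4 high fat diet libraries.

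The promoters of 3 of these genes are shown because the loop from NF-kB to its inhibitors runs through kappa-B sites, and because these 3 genes differed by at least 2-fold within the tumour pair. Nfkbiz also did, but the promoter table used holds no entry for it. They are given 5′ to 3′ on the strand of the gene, from RefSeq on GRCm38.p6 (Nfkbia chr12:55492648-55492897, minus strand; Tnfaip3 chr10:19015411-19015547, minus strand; Ier3 chr17:35821463-35821683, plus strand). Capitals mark matches, on either strand, to the kappa-B consensus.
Nfkbia: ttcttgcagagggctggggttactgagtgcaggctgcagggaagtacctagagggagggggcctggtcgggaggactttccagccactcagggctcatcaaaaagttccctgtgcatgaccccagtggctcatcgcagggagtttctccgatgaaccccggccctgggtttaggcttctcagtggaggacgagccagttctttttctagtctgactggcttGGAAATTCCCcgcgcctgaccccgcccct
Tnfaip3: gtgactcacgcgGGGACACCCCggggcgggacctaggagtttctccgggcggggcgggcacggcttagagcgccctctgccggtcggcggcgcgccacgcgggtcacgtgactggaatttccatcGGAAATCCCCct
Ier3: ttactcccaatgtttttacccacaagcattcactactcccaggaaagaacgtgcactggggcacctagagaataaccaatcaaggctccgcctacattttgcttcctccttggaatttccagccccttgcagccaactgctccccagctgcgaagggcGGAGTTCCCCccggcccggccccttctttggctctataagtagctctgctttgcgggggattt
Counted from the start in the RefSeq table, the match of Nfkbia begins at -29, that of Ier3 at -92 and those of Tnfaip3 at -125 and -12. For Ier3 and Tnfaip3 that start is not the first base of the gene span given above: it lies downstream of it, and the Tnfaip3 stretch is within that span, outside its exons. Of the 10 members, 7 were matched in the promoter table and 5 of these (Nfkbia, Tnfaip3, Ier3, Rel and Nfkb2) held at least 1 match in a promoter. Rel and Nfkb2, whose promoters are not printed, did not differ by 2-fold between temperatures. Among the 8828 tested genes with a promoter in the table, 10.6% held at least 1 match in a promoter. A match is a run of letters and says nothing on binding in these cells.

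Another feature of rapidly turned over transcripts, the pentamer ATTTA in the 3′ UTR, was counted in 1 annotated transcript per gene, on the transcript strand and with overlapping matches kept. Ier3 held 5 copies (8.16 per kb) and Nfkbiz held 4 (2.95 per kb). Tnfaip3 held 5 (2.75 per kb) and Nfkbia held 2 (3.91 per kb). Among the subunits, Rel held 12 copies in its long 3′ UTR (2.22 per kb), Nfkb1 held 4 (5.71 per kb), Nfkb2 held 1 in a short one (7.52 per kb), and Rela and Relb held 0, as did Bcl3. Over 10807 genes the median was 1 copy per 3′ UTR, or 1.28 per kb. The pentamer was thus present in members that differed with temperature in the tumour pair and in some that did not, such as Nfkb1 and Nfkb2.

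Differences between 37 and 6 degrees were then described within each source on the log2(FPKM + 1) scale, where low levels give smaller differences than the ratio of FPKM. In the tumour pair 4 of 10 members (Nfkbiz, Ier3, Tnfaip3 and Nfkbia) were at least 2-fold higher at 37 degrees, against 1.96% of all genes tested. In the non-tumour pair 0 of 10 were, against 0.225% of all genes, and in the normal diet pair 2 of 10 were (Nfkbiz and Ier3), against 0.779%. No member was 2-fold lower at 37 degrees in any pair, against 4.29% of all genes in the tumour pair, 5.75% in the non-tumour pair and 4.12% in the normal diet pair. The differences of Nfkbiz were 4.83 in the tumour pair, 0.52 in the non-tumour pair and 2.69 in the normal diet pair. Those of Ier3 were 2.19, 0.24 and 1.19 in the same order of pairs. Nfkbia had 1.16, 0.05 and -0.21, and Tnfaip3 had 1.37, -0.09 and 0.07. The last 2 genes thus differed by more than 0.25 in the tumour pair alone.

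The 5 subunits stayed between -0.38 (Nfkb2, non-tumour pair) and 0.51 (Rel, normal diet pair). Their median difference was -0.01 in the tumour pair, -0.21 in the non-tumour pair and -0.03 in the normal diet pair. The median of the other 5 members was 1.37, 0.05 and 0.07 in the same order, while that of all genes was -0.01, 0.01 and 0.02. The tumour region library of 37 degrees was the highest of the 6 for 6 of 10 members, against 19.3% of all genes. For 7 of 10 members the signed difference (37 minus 6 degrees) was highest in the tumour pair, against 34% of all genes. By size this did not hold for Nfkb2 (0.01 in the tumour pair and -0.38 in the non-tumour pair) or Bcl3 (0.36 and -0.38). Nfkbiz and Ier3 were higher at 37 degrees in all 3 pairs, as were 23.4% of all genes. In those same pairs the endothelial and macrophage marker sums were lower at 37 degrees, and their part was not tested. Within tumour region cells the macrophage sum was 706 FPKM at 37 degrees and 1777 FPKM at 6 degrees. The endothelial sum was 446 and 1654 FPKM. By the test over the 3 pairs, 10 of 10 endothelial and 8 of 10 macrophage markers fell at 37 degrees, against 4.62% of all genes. Of the stellate markers 4 of 10 rose, against 0.511% of all genes.

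**Figure D2:**
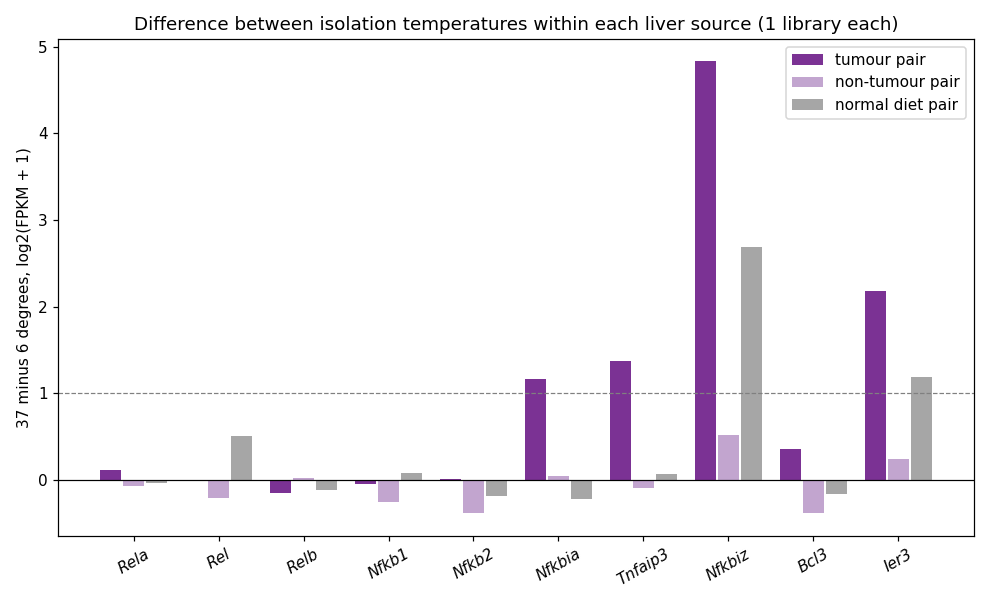
Difference between 37 and 6 degrees on the log2(FPKM + 1) scale for each of the 10 genes in each source. Each pair of libraries has 1 bar, with a line at 0 and a dashed line at 1. Nfkbiz (4.83), Ier3 (2.19), Tnfaip3 (1.37) and Nfkbia (1.16) lie above 1 in the tumour pair, and the subunits lie between -0.38 and 0.51 in every pair.

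When temperature was tested over the 3 pairs with source as a term (limma, Benjamini-Hochberg adjustment over all genes), 0 of 10 members passed an adjusted p of 0.05. Over all genes 5.13% passed, 0.511% higher and 4.62% lower at 37 degrees. The largest log2 fold changes among the members were 2.68 ± 0.76 (SE) for Nfkbiz, with a limma adjusted p of 0.134, and 1.21 ± 0.35 for Ier3, with an adjusted p of 0.137. At an unadjusted p under 0.05 these 2 were higher, against 8.52% of all genes, and 0 were lower, against 12.1%. For Nfkbiz the fold change was 1.61 without the tumour pair and 3.76 without the non-tumour pair. Tnfaip3 had 0.45 ± 0.30 (adjusted p 0.452) and Nfkbia 0.33 ± 0.27 (adjusted p 0.529), and without the tumour pair these became -0.01 and -0.08. Of the subunits, Rela had 0.00 ± 0.07, Rel 0.10 ± 0.18, Nfkb1 -0.08 ± 0.10, Relb -0.08 ± 0.08 and Nfkb2 -0.18 ± 0.11, and Bcl3 had -0.06 ± 0.15. Their limma adjusted p-values ran from 0.404 for Nfkb2 to 0.980 for Rela.

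Whether the temperature difference itself varied with the source was tested by setting each pair against the mean of the other 2, with 1 residual degree of freedom. Adjusted over all genes with limma, 0 of 11557 genes passed for the tumour pair, and at an unadjusted p under 0.05 588 genes (5.09%) had a higher and 270 (2.34%) a lower difference in that pair. Among the members, 5 of 10 had a higher difference at the unadjusted threshold: Nfkbia, Tnfaip3, Nfkbiz, Ier3 and Bcl3. The tumour pair exceeded the other pairs by 1.25 ± 0.19 (SE) for Nfkbia and by 1.38 ± 0.23 for Tnfaip3, with limma adjusted p-values of 0.208 and 0.225. For Nfkbiz the excess was 3.23 ± 0.85, for Ier3 1.47 ± 0.40 and for Bcl3 0.63 ± 0.20, with adjusted p-values of 0.465, 0.479 and 0.577. The subunits had terms of -0.16 (Rel) to 0.29 (Nfkb2) for the tumour pair, none past the unadjusted threshold. The non-tumour pair differed from the others in 0 genes, although at the unadjusted threshold 46 genes (0.398%) had a higher difference and 224 (1.94%) a lower one, among the lower ones Nfkbiz (-3.23) and Ier3 (-1.44). The other 8 members had terms of -0.81 (Tnfaip3) to 0.16 (Relb). For the normal diet pair 0 genes passed, and at the unadjusted threshold 281 genes (2.43%) had a higher and 322 (2.79%) a lower difference, with no member among them; the members' terms ran from -0.82 (Nfkbia) to 0.61 (Rel). None of the members was therefore shown to respond to temperature differently between sources at the adjusted threshold.

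The sources were compared next, first the tumour region with normal diet over the 2 temperatures. With limma, 3 of 10 members rose in tumour region cells and 0 fell, against 6.07% and 3.28% of all genes (9.35% in either direction). At an unadjusted p under 0.05, 6 members were higher (15.4% of all genes) and 0 lower (10.6%). Bcl3 rose by 1.21 ± 0.19 on the log2 scale (SE, adjusted p 0.0215), Rela by 0.50 ± 0.09 (adjusted p 0.0322) and Nfkb1 by 0.60 ± 0.13 (adjusted p 0.0485). These calls were not stable: those of Rela and Nfkb1 were lost when any 1 of the 4 libraries was left out, with adjusted p-values of 0.0523 to 0.164 and 0.114 to 0.211. The call of Bcl3 was lost without the normal diet library of 37 degrees (adjusted p 0.125) or of 6 degrees (0.0910). Relb had 0.46 ± 0.10 (adjusted p 0.0503), Tnfaip3 1.35 ± 0.37 (0.0862), Nfkb2 0.40 ± 0.13 (0.136) and Nfkbia 0.78 ± 0.33 (0.209). Rel had 0.50 ± 0.21 (0.220), Nfkbiz 1.99 ± 0.93 (0.253) and Ier3 0.15 ± 0.43 (0.865). All 10 estimates were positive (Ier3 turned to -0.018 under quantile normalization), as were 51.5% of those of all genes, and their median was 0.55 against 0.01 over all genes.

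The inhibitors differed more between these sources at 37 degrees than at 6 degrees. At 37 degrees the ratio of tumour region to normal diet FPKM was 8.48 for Nfkbiz, 4.60 for Tnfaip3 and 2.77 for Nfkbia, whereas at 6 degrees it was 1.76 for Tnfaip3 and 1.07 for Nfkbia, and Nfkbiz had 16.2 FPKM in the tumour region and 8.09 FPKM in normal diet cells. With the tumour region library of 6 degrees left out, a single library of 37 degrees stood for the tumour region and had no spread of its own. The estimates on the log2 scale were then 2.05 for Tnfaip3, 1.40 for Nfkbia, 3.60 for Nfkbiz and 1.52 for Bcl3. With the tumour region library of 37 degrees left out instead, they were 0.66, 0.16, 0.38 and 0.89 in the same order. The subunits were closer between temperatures: Rela had ratios of 1.49 at 37 degrees and 1.35 at 6 degrees, and Relb 1.37 and 1.41, whereas Rel, at low levels, had 3.52 FPKM in the tumour region and 2.82 FPKM in normal diet cells at 37 degrees, and 3.55 and 1.69 FPKM at 6 degrees. On the log2(FPKM + 1) scale 4 of 10 members (Nfkbia, Tnfaip3, Nfkbiz and Bcl3) were at least 2-fold higher in the tumour region at 37 degrees, against 6.4% of all genes, and 0 of 10 at 6 degrees, against 4.59%. For the non-tumour region against normal diet, 0 of 10 were at 37 degrees, against 2.47%, and 1 of 10 (Bcl3) at 6 degrees, against 3.53%.

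In the non-tumour region against normal diet, 2 of 10 members rose and 0 fell, against 2.98% and 2.59% of all genes (5.56% in either direction). At an unadjusted p under 0.05, 4 members were higher (12.6% of all genes) and 0 lower (9.02%). The 2 that rose were Relb, by 0.71 ± 0.10 on the log2 scale (SE, limma adjusted p 0.0207), and Rela, by 0.49 ± 0.09 (adjusted p 0.0446). Both calls were lost when any 1 of the 4 libraries was left out, with adjusted p-values of 0.0972 to 0.181 for Relb and 0.166 to 0.328 for Rela. Bcl3 had 0.90 ± 0.19 (adjusted p 0.0608) and Nfkb1 0.44 ± 0.13 (0.123), while Nfkb2 had 0.32 ± 0.13, Tnfaip3 0.54 ± 0.37, Nfkbia 0.38 ± 0.33 and Rel 0.30 ± 0.21. Ier3 (-0.85 ± 0.43) and Nfkbiz (-0.09 ± 0.93) had negative estimates, and none of these 6 passed. The median over the members was 0.41, against 0.03 over all genes. This comparison and the previous one share the normal diet libraries, so Rela passing in both is not 2 independent results.

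Marker levels also differed between these sources. Their part in the source differences was not tested. At 37 degrees the macrophage marker sum was 31.0 FPKM in non-tumour region cells and 39.2 FPKM in normal diet cells. At 6 degrees it was 488 and 424 FPKM. In the same order, Relb was 36.8 and 21.1 FPKM at 37 degrees and 36.2 and 23.0 FPKM at 6 degrees. Rela was 91.0 and 65.4 FPKM at 37 degrees and 95.3 and 66.9 FPKM at 6 degrees. The endothelial sum was 482 and 61.9 FPKM at 37 degrees and 3377 and 1288 FPKM at 6 degrees. In tumour region cells the macrophage sum was 706 FPKM at 37 degrees, against 39.2 FPKM in normal diet cells. Across the 6 libraries, 7 of 10 members (Rela, Relb, Nfkb1, Nfkb2, Nfkbia, Tnfaip3 and Bcl3) were higher in all 4 high fat diet libraries than in both normal diet libraries, against 15.5% of all genes. For 0 of 10 members all 4 were lower, against 14.6% of all genes. Diet and the region sampled were not crossed, since no tumour region of normal diet livers was sampled, so the effect of diet and of tissue state cannot be told apart.

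**Figure D3:**
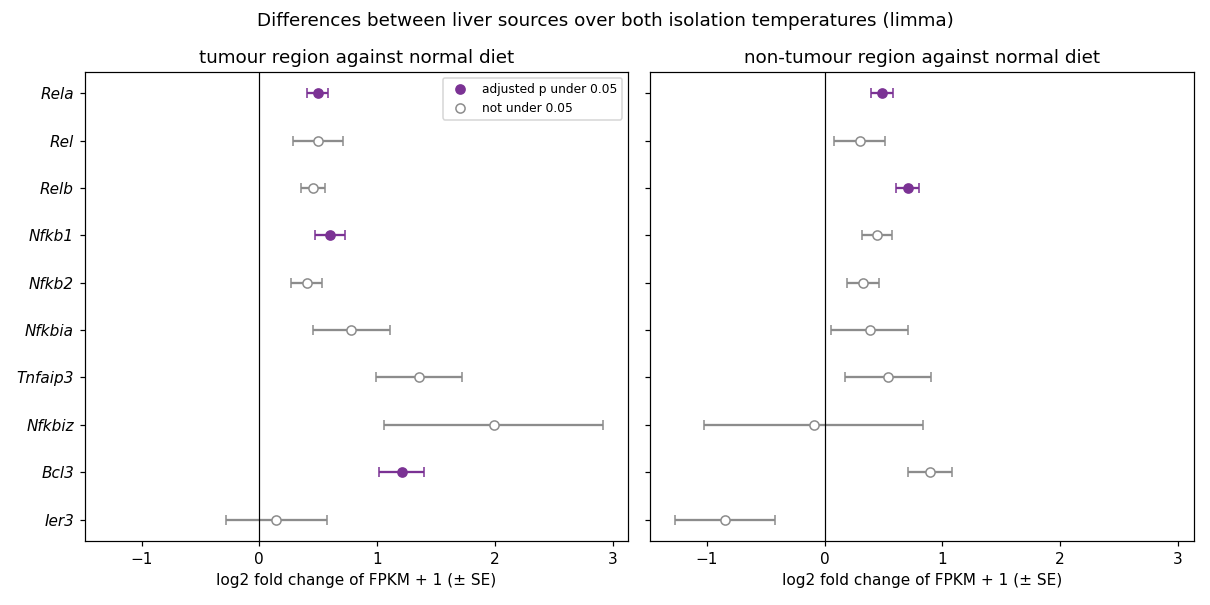
Log2 fold change of each of the 10 genes for the tumour region and for the non-tumour region, each against normal diet. Bars are standard errors from the limma fit over the 6 libraries. Bcl3, Rela and Nfkb1 passed for the tumour region and Relb and Rela for the non-tumour region, both against normal diet, and the intervals of Nfkbiz are the widest (SE 0.93).

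Between the tumour and the non-tumour region 0 of 10 members passed with limma, as against 0.45% of all genes, all of them higher in the tumour region. At an unadjusted p under 0.05, 0 members were higher (6.37% of all genes) and 1 was lower (3.76% of all genes), Relb with -0.25 ± 0.10 (SE, adjusted p 0.490). The estimates of Nfkbiz (2.08 ± 0.93), Ier3 (0.99 ± 0.43) and Tnfaip3 (0.82 ± 0.37) had adjusted p-values of 0.530 to 0.540. Tnfaip3 passed only with the tumour region library of 6 degrees left out (1.51, adjusted p 0.0332), where a single tumour library was assumed to vary like the others; without the tumour library of 37 degrees it had 0.13, without the non-tumour library of 37 degrees 0.41 and without that of 6 degrees 1.22. At 37 degrees the ratio of tumour to non-tumour FPKM was 19.6 for Nfkbiz, 3.95 for Ier3, 3.18 for Tnfaip3 and 1.94 for Nfkbia. At 6 degrees the ratios of these 4 genes were 0.950, 1.01, 1.07 and 0.894.

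**Figure D4:**
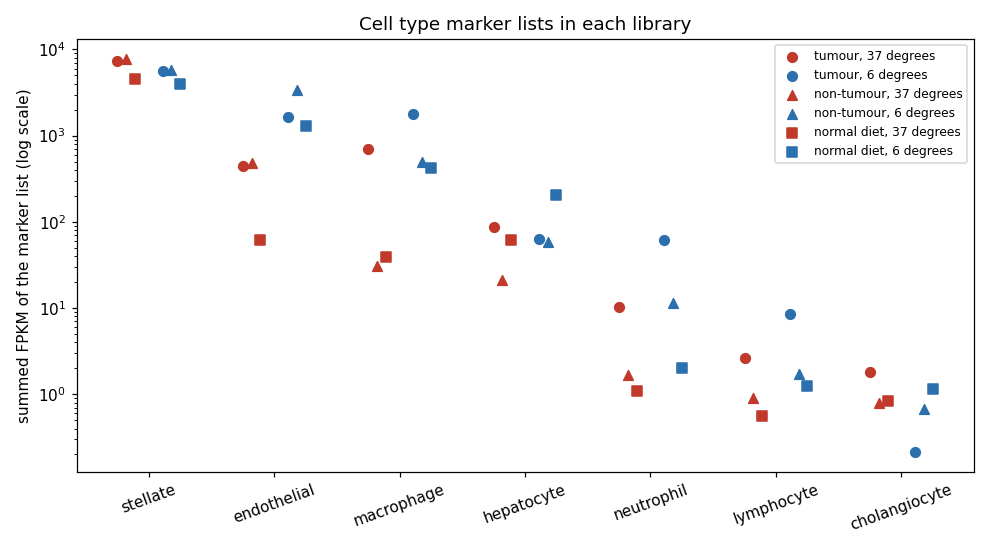
Summed FPKM of the marker lists of each cell type in each of the 6 libraries, on a log axis, with no error bars because each group held 1 library. Stellate markers are high in all libraries, whereas endothelial and macrophage sums are lower at 37 degrees (61.9 to 482 and 31.0 to 706 FPKM) than at 6 degrees (1288 to 3377 and 424 to 1777 FPKM).

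The rest of the pathway was read from 4 lists. Of 22 receptors and adaptors, 21 were tested, and for temperature 0 rose and 0 fell, against 0.511% and 4.62% of all genes. In tumour region cells 3 rose against normal diet and 0 fell, against 6.07% and 3.28% of all genes: Traf5, an adaptor of tumour necrosis factor receptors (0.87 ± 0.16 on the log2 scale, SE, limma adjusted p 0.0344), Ly96, the partner of Tlr4 in sensing lipopolysaccharide (0.86 ± 0.18, adjusted p 0.0459), and Il1r1, the signalling receptor of interleukin 1 (0.73 ± 0.09, adjusted p 0.0129). Il1r1 also rose in non-tumour region cells (0.69 ± 0.09, adjusted p 0.0173), the only gene of the list to do so, against 2.98% of all genes. The calls of Traf5 (limma adjusted p 0.0689 to 0.150), Ly96 (0.0764 to 0.198) and Il1r1 in non-tumour region cells (0.0672 to 0.157) were lost whichever 1 of the 4 libraries was left out. That of Il1r1 in tumour region cells held only without the tumour region library of 6 degrees (0.0354 to 0.0808). Its level was 67.4 FPKM at 37 degrees and 53.9 FPKM at 6 degrees in tumour region cells, 66.8 and 51.3 FPKM in non-tumour region cells, and 39.0 and 33.2 FPKM in normal diet cells. The 3 genes of this list with the largest differences within the tumour pair were Myd88 (117 FPKM at 37 degrees and 51.1 FPKM at 6 degrees), the adaptor of Toll-like and interleukin 1 receptors, with Irak4 (6.53 and 10.7 FPKM) and Ripk1 (28.3 and 18.5 FPKM). Myd88 lay between 44.8 and 52.2 FPKM in the 4 libraries of the other sources.

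All 10 kinases were tested and 0 passed in any of the 4 comparisons of temperature and source. Of all genes, 5.13% passed for temperature and 9.35% for the tumour region against normal diet. For the non-tumour region against normal diet 5.56% passed, and 0.45% between the 2 regions. Map3k8, the kinase that Nfkb1's precursor holds inactive, had the largest difference within the tumour pair, with 94.1 FPKM at 37 degrees and 14.3 FPKM at 6 degrees, and 15.9 to 24.5 FPKM in the other sources. Chuk, a catalytic subunit of IkB kinase, had 16.7 and 12.9 FPKM in the tumour pair, and Tab1, a partner of the kinase Map3k7, had 2.07 and 3.38 FPKM. Of 14 other inhibitors 13 were tested, and 1 rose in tumour region cells against normal diet, the nuclear IkB gene Nfkbid (1.32 ± 0.27 on the log2 scale, SE, limma adjusted p 0.0437), against 6.07% of all genes. This call held only without the tumour region library of 6 degrees (adjusted p 0.0243 to 0.199 over the 4 libraries left out). Nfkbid had 4.04 FPKM at 37 degrees and 2.17 FPKM at 6 degrees in tumour region cells, 0.769 and 1.21 FPKM in non-tumour region cells, and 0.621 and 0.579 FPKM in normal diet cells. It passed the filter on low values only through the tumour region libraries, where it was then called higher. As a count, 1 of 13 lay near the share of all genes. Zc3h12a, an RNase that degrades inflammatory transcripts, had 7.31 and 2.02 FPKM in the tumour pair, and Tnip2, which binds the Tnfaip3 product, had 44.9 and 25.5 FPKM.

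Of 36 genes known as NF-kB targets, 30 were tested; Tnf, Ccl20, Csf2, Lif, Mmp9 and Nod2 were under the filter. For temperature 0 rose and 2 fell at 37 degrees, Bcl2a1b (-1.55 ± 0.15 on the log2 scale, SE, limma adjusted p 0.0108) and Ebi3 (-1.32 ± 0.18, adjusted p 0.0210), against 0.511% and 4.62% of all genes. Without the non-tumour pair both calls were lost (adjusted p 0.0610 and 0.127), and that of Ebi3 also without the tumour pair (0.0574). Bcl2a1b has near-identical copies, so how its reads were divided is uncertain. Ebi3 had 0.849 FPKM at 37 degrees and 4.85 FPKM at 6 degrees in tumour region cells. It had 0 and 1.49 FPKM in non-tumour region cells, and 0.0971 and 1.17 FPKM in normal diet cells. Ebi3 thus passed the filter only through libraries of 6 degrees, the group where it was higher. Macrophage and endothelial marker sums were also lower at 37 degrees, and their part in these 2 calls was not tested. Within the tumour pair the largest differences were those of the cytokine Il6 (17.9 FPKM at 37 degrees and 0.263 FPKM at 6 degrees), the neutrophil chemokine Cxcl1 (1288 and 88.7 FPKM) and the stress gene Gadd45b (180.0 and 17.1 FPKM). In the normal diet pair Il6 had 1.01 and 0.0883 FPKM, Cxcl1 137 and 21.7 FPKM and Gadd45b 40.5 and 12.2 FPKM. In the non-tumour pair these genes had 0.487 and 0.0528 FPKM, 113 and 79.3 FPKM, and 19.5 and 9.43 FPKM. Il6 passed the filter only through the tumour region library of 37 degrees, since its other values ran from 0.0528 to 1.01 FPKM. At 6 degrees 1 fragment per kilobase was estimated at 0.0452 to 0.0541 FPKM, so its values there rested on few fragments. The median difference of the tested targets was 0.48 in the tumour pair, 0.21 in the non-tumour pair and 0.12 in the normal diet pair.

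For the sources, 10 of the 30 tested targets rose in tumour region cells against normal diet and 0 fell, against 6.07% and 3.28% of all genes. They were Cxcl2, Bcl2a1b, Sele, Ccl2, Tnfaip2, Ccl7, Cxcl5, Plaur, Icam1 and Ebi3. Cxcl2, a neutrophil chemokine, rose by 2.57 ± 0.18 on the log2 scale (SE, limma adjusted p 0.00694), and Ccl2, a monocyte chemokine, by 2.02 ± 0.22 (adjusted p 0.0103). Cxcl2 had 15.2 FPKM at 37 degrees and 9.26 FPKM at 6 degrees in tumour region cells, 3.24 and 2.87 FPKM in non-tumour region cells, and 1.34 and 1.02 FPKM in normal diet cells. With the FPKM as deposited, all 30 tested targets had positive estimates and their median was 1.23, against 0.01 over all genes. In non-tumour region cells 4 rose against normal diet, Sele (1.96 ± 0.18), Ccl2 (1.66 ± 0.22), Cxcl5 (1.07 ± 0.15) and Tnfaip2 (0.98 ± 0.15), and 0 fell, against 2.98% and 2.59% of all genes. Their limma adjusted p-values were 0.00844 for Sele, 0.0181 for Ccl2, 0.0229 for Cxcl5 and 0.0249 for Tnfaip2. Between tumour and non-tumour region 2 rose, Bcl2a1b (1.69 ± 0.18) and Cxcl2 (1.67 ± 0.18), both with an adjusted p of 0.0435, against 0.45% of all genes. Macrophages and endothelial cells are also known to express several of these targets, Sele being an endothelial adhesion molecule, and the marker sums given above moved with the sources in these comparisons; their part was not tested. The calls of Cxcl2, Bcl2a1b, Sele and Tnfaip2 in tumour region cells held whichever 1 of the 4 libraries was left out (highest limma adjusted p 0.0295, 0.0283, 0.0295 and 0.0280). Every other call of a target between sources was lost without at least 1 library.

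Genes whose log2(FPKM + 1) values ran most like those of the 3 members with the largest temperature differences were looked up among 2194 non-member genes with a range of at least 1. These correlations are descriptions over the same 6 libraries, and for all 9 genes, as for the 3 members, the tumour region library of 37 degrees was the highest. For Nfkbiz they were Rhob (Pearson r 0.998), Irs2 (0.990) and Nr4a3 (0.990). Rhob had 189.9 FPKM at 37 degrees and 61.2 FPKM at 6 degrees in tumour region cells, 72.2 and 66.9 FPKM in non-tumour region cells, and 99.0 and 51.8 FPKM in normal diet cells. For Ier3 the nearest genes were the immediate early gene Fosb (0.980), Gm13889 (0.975) and Fam46c (0.969). For Tnfaip3 they were Litaf (0.994), Ifit1 (0.991) and Mnda (0.984), and these were lowest in the 2 normal diet libraries, Litaf with 274 FPKM at 37 degrees and 165 FPKM at 6 degrees in tumour region cells, 149.5 and 146 FPKM in non-tumour region cells, and 129 and 123 FPKM in normal diet cells.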

How the data were processed

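The deposited values are FPKM, which the authors list for 24346 gene symbols in each of 6 libraries. The submitters' processing notes name TopHat2 2.1.1, Bowtie2 and Cuffdiff 2.2.1 with the mm10 build. Not given in the sources used here are the settings, the annotation and whether strand was used.

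The test was limma 3.58.1 (R 4.3.3) on log2(FPKM + 1). A mean of 1 FPKM or more was required and 1308 small RNA symbols were left out, leaving 11557 genes. Source and temperature were additive terms, with 2 residual degrees of freedom (5.37 after empirical Bayes moderation with an intensity trend), so a temperature effect that varied with source is counted partly as noise. A separate model added a term for 1 pair. Benjamini-Hochberg adjustment ran over all genes, with 0.05 as threshold. Errors are standard errors. The fit was tested on simulated data.

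Depth was estimated from low values: 1153 of 4610 low genes (25.0%) had values at whole multiples of their smallest one (tolerance 0.01, log2). As only a minority came out whole, no counts were recovered, and the depths are approximate; the quartiles for the normal diet library of 6 degrees were 1.86e+07 and 2.39e+07.

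The members, pathway lists, marker lists and tests were chosen with earlier results of these data known. Every member is reported in every comparison of temperature and source, and in the terms for a single pair by value or by range. Listed pathway genes are named if they passed (up to 4 per list and comparison with values; the other passing targets of the tumour region are named after their values were seen) or were among the 3 of their list with the largest difference in the tumour pair. Alike genes are the 3 with the highest Pearson correlation. Positions are from GENCODE vM21 and promoters from RefSeq, trimmed to bases outside annotated exons. The alternatives were another pseudocount, filter, scaling and small RNA rule, and leaving out libraries or pairs.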

Additional observations from a re-analysis of the deposited data

Results flagged for a closer look

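Bcl3 moved in opposite directions in 2 sources. On the log2(FPKM + 1) scale its difference between 37 and 6 degrees was 0.36 in tumour region cells and -0.38 in non-tumour region cells, 0.74 apart. Each difference rests on 1 pair of libraries, and the difference between these 2 pairs was not tested. The tumour pair set against the mean of both other pairs had an excess of 0.63 ± 0.20 (SE) with a limma adjusted p of 0.577.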

How the results depend on the processing

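No paired analysis was possible because the labels give no replicate numbers; the temperature test pairs the libraries only by source, through its source term. Temperature called 593 genes, against 330 with a mean of at least 5 FPKM and 0 with no filter on low values (limma; by unadjusted p under 0.05, 1020 higher and 1820 lower), and 82 to 472 with 1 pair left out. Tumour region against normal diet called 1081, against 681 with at least 5 FPKM, 505 with no filter and 303 to 980 with 1 library left out. Non-tumour region against normal diet called 643, against 265 with no filter and 0 to 305 with 1 library left out. Tumour against non-tumour region called 52, against 0 with at least 5 FPKM, 0 with no filter, 0 with a pseudocount of 0.1, 1 with small RNA genes kept and 0 to 165 with 1 library left out. For the tumour pair against the others, 0 genes became 8 with small RNA genes kept, and the same count for the non-tumour pair became 2 at a pseudocount of 0.1 and 1 with small RNA genes kept. The cause of these moves was not tested, other than that leave-one-out fits hold fewer libraries. Leaving out libraries was not run for the pair terms, since no residual degree of freedom would remain.

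Of the called members, Bcl3 for tumour region against normal diet lost its call with no filter (limma adjusted p 0.063), Rela with no filter (0.058) and quantile normalization (0.062), and Nfkb1 under 4 of 6 settings (adjusted p up to 0.089). For non-tumour region against normal diet, Relb kept its call under all 6 settings, and Rela lost it under 5 (adjusted p 0.051 to 0.079). The 23 calls of pathway genes, 6 of them (targets in tumour region against normal diet) added after seeing the data, held in 100 and were lost in 35 fits under these settings. With libraries or pairs left out, they held in 36 fits and were lost in 54. The Il6 differences moved with a pseudocount of 0.1, to 5.63 in the tumour pair, 1.94 in the non-tumour pair and 2.56 in the normal diet pair.

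Direction reversed under quantile normalization for Ier3 in tumour region against normal diet (-0.018), for Rela in temperature (-0.034) and tumour against non-tumour region (-0.035), and for the normal diet pair term of Ier3 (0.045) and Nfkb2 (-0.026). The term of Nfkb2 also reversed with median-ratio scaling (-0.0063) and a pseudocount of 0.1 (-0.0011), and Rela's temperature effect with median-ratio scaling (-0.00051). With 1 pair left out, temperature effects ran from -0.27 to 0.10 for Bcl3, -0.15 to 0.014 for Nfkb1, -0.083 to 0.61 for Nfkbia, -0.11 to 0.25 for Rel, -0.050 to 0.039 for Rela and -0.012 to 0.72 for Tnfaip3. With 1 library left out, tumour against non-tumour region ran from -0.0046 to 0.63 for Bcl3, -0.069 to 0.23 for Nfkb2, -0.23 to 1.02 for Nfkbia, -0.024 to 0.43 for Rel and -0.072 to 0.09 for Rela. Non-tumour region against normal diet ran from -0.027 to 0.79 for Nfkbia, -1.71 to 1.52 for Nfkbiz and -0.011 to 0.60 for Rel, and tumour region against normal diet from -0.59 to 0.88 for Ier3. With 1 library per group no level has an error of its own, and Rel has the fewest fragments behind it.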
